A study of Mus musculus with 8 samples.

Results

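The genes that build the cornified envelope of stratified squamous epithelium were followed across 2 fractions of mouse esophageal epithelial cells. They were chosen by symbol: every small proline-rich (Sprr) and late cornified envelope (Lce) gene of the count table, together with Lor, Ivl, Flg, Flg2, Rptn, Tchh, Tchhl1, Hrnr, Crnn, Crct1, Lelp1, Cnfn, Krtdap, Sbsn, Scel, Evpl, Ppl, Tgm1, Tgm3, Tgm5 and Ecm1. This gave 57 of the 55276 gene symbols in the table, and 2 rows with a -ps name, which marks a pseudogene, were left out. Cells came from C57BL6 mice aged 14 to 15 weeks, 2 females and 2 males, and no genetic change or drug is named in the labels. Live cells that were integrin-b1 positive and DAPI negative were sorted by their Cyto-ID signal (Cyto-ID stains autophagic vesicles) into a Cyto-ID Low and a Cyto-ID High fraction, and RNA of each fraction was sequenced in bulk. Each animal gave 1 library of each fraction, so there were 4 Low and 4 High libraries, and values below are always listed in the order Female1, Female2, Male1 and Male2. The series asks how cells with many autophagic vesicles differ from cells with few, among what the protocol calls basal cells.

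The cornified envelope is a sheet of cross-linked protein that forms under the plasma membrane of squamous cells in their last stage of differentiation. Envoplakin and periplakin are laid down early with involucrin as a scaffold, loricrin, small proline-rich and late cornified envelope proteins are added later, and transglutaminases join them by isopeptide bonds between glutamine and lysine residues. Many of these precursors are encoded side by side in the epidermal differentiation complex, which also holds the S100-fused type genes such as filaggrin and repetin. In rodents the esophagus is a keratinised epithelium, in which such genes are switched on as cells leave the basal layer.

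Library totals ran from 26285150 to 28599954 counts in Low and from 27486049 to 29301054 in High. Levels are given as CPM (counts of a gene per 1e6 counts of the library) after TMM scaling, which trims genes with extreme ratios before libraries are put on one scale, and differences as log2 fold changes of High over Low. The TMM factors were 1.16 to 1.30 in Low, and 0.944, 0.792, 0.896 and 0.679 in High. A smaller factor raises the CPM of a given count, so the order of libraries can differ between CPM and counts. All 8 markers of basal esophageal cells (Krt5, Krt14, Krt15, Trp63, Itgb1, Itgb4, Itga6 and Sox2) were lower in High, with a summed level of 19426 to 22805 CPM in Low and 2690.2 to 4345 CPM in High. They include Itgb1, the integrin of the sorting gate, at a mean of 370.2 CPM in Low and 68.2 CPM in High. All 3 suprabasal markers (Krt4, Krt13 and Klf4) were higher, from 8402 to 23442 CPM in Low and from 120875 to 211931 CPM in High. High Male2 stood apart from the other High libraries: it had counts for 22208 genes, against 24820 to 27395 in the other 3, and the lowest leukocyte, fibroblast, endothelial and muscle marker sums of all 8 libraries. Values without it are given for several called genes in which it was the highest library. The High and Low libraries of Female2 alone held stomach gland transcripts, with a summed level of 108 and 17.3 CPM for 6 markers, against at most 0.977 CPM in the other 6 libraries. In bulk RNA, fewer cells of a type and less RNA per cell cannot be told apart.

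Cornified envelope transcripts as a whole were several-fold more abundant in the Cyto-ID High fraction. The 57 genes summed to 5744, 6295, 3931 and 8091 CPM in the Low libraries and to 45564, 49080.1, 41775 and 63696 CPM in the High libraries. The means were 6015 ± 1713 and 50029 ± 9587 CPM (SD, n = 4 each), an 8.32-fold difference, and every High library was above every Low library. As a share of all counts they went from 0.732 ± 0.203% to 4.06 ± 0.29%. Within Low, Male1 had the smallest sum and Male2 the largest, and the summed suprabasal markers had the same extremes, 8402 CPM in Male1 and 23442 CPM in Male2. The part of these marker differences in the result was not tested.

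Of the 57 genes, 53 had enough counts to be tested. High was compared with Low by edgeR's quasi-likelihood test with sex as a covariate and Benjamini-Hochberg adjustment over all 17344 genes tested, and a gene was called at an adjusted p under 0.05. By this rule 27 members were higher in High, 1 was lower (Tchh) and 25 did not pass. Over all genes tested the same rule called 48.7% in either direction, 23.4% higher and 25.3% lower, so calls are common in this comparison. The median log2 fold change was 0.82 for the tested members and −0.09 for all genes tested. A call higher with a log2 fold change of 3 or more was made for 13 members, and for 2.32% of all genes tested. In 25 of the 53 tested members all 4 High libraries were above all 4 Low libraries, against 23.6% of all genes, and in 1 member all High were below all Low, against 24.9%. DESeq2 called the same 28 members. Without High Male2 the counts were 26 higher and 1 lower, the lost call being Lce1f. Without High Male1 they were 25 and 1, and the members' median was 0.30. Scaling by total counts called 25 members higher and 1 lower; it moved the median of all genes by −0.55, and 20.5% of all calls were then higher, against 48% with TMM.

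**Figure D1:**
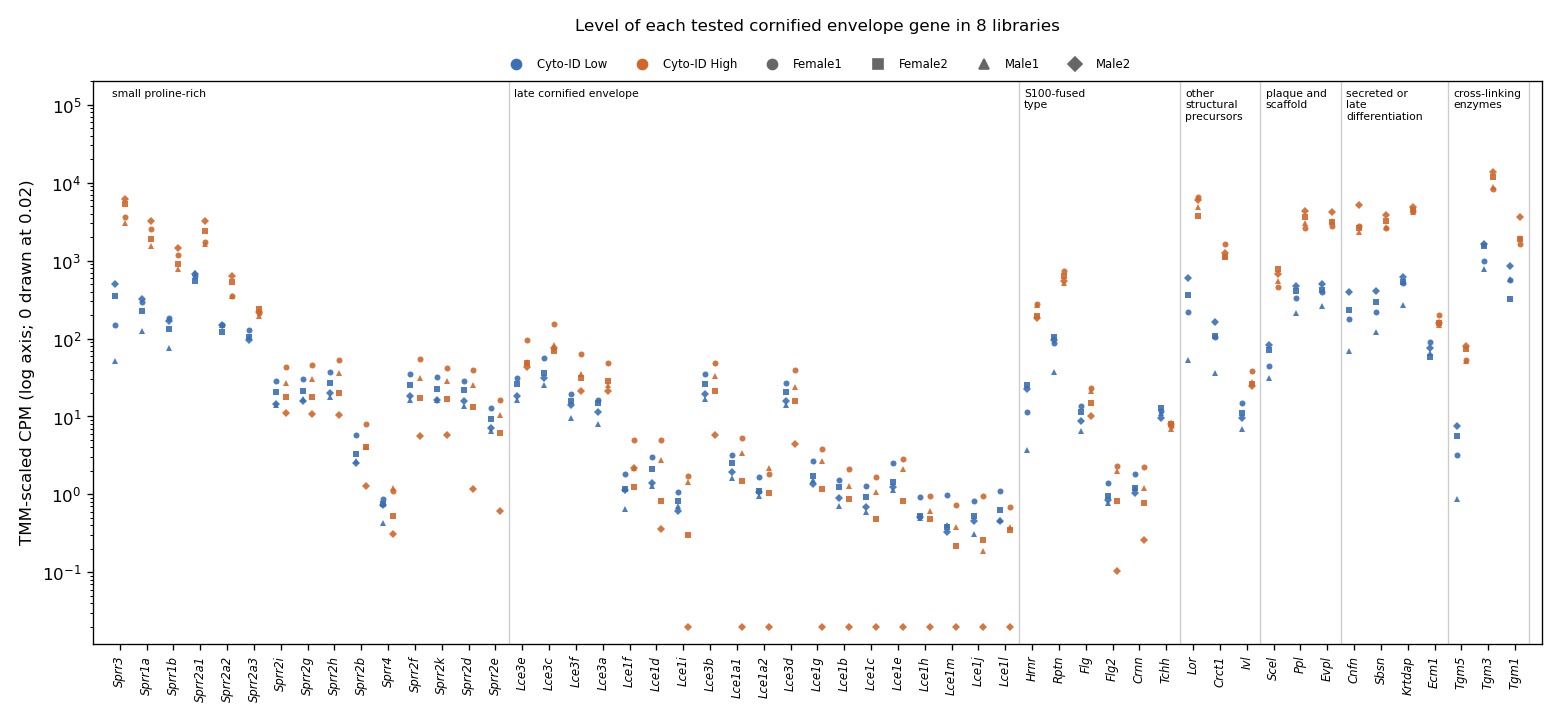
TMM-scaled CPM (log axis, 0 drawn at 0.02) of the 53 tested genes in each of the 8 libraries, grouped by role; blue marks Cyto-ID Low, orange Cyto-ID High, and the marker shape the animal. In Lor, Crct1, the plaque and the cross-linking genes all orange points lie above all blue points, whereas in most Lce1 and Sprr2 genes the orange points span the blue ones, with High Male2 (orange diamonds) at the bottom.

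The members split by place in the genome. By GENCODE M21 on GRCm38, 48 lie on chromosome 3, and 47 of them, all but Ecm1, fall between chr3:92080271 and chr3:93471980. The other 9 lie on chromosomes 2, 7, 11, 14 and 16, and all 9 were called higher, against 23.4% of all genes tested. Those 9 were chosen by name, while most members of the complex entered as whole Sprr and Lce families. Place and way of choice therefore cannot be told apart. Called and uncalled genes were interspersed along the complex (the plot of fold changes in gene order). From Lor at one end, the 3 Sprr2a genes were called, the next 8 Sprr2 genes were not, Sprr1b, Sprr3 and Sprr1a were called, Sprr4 was not, and Ivl was called. Of the Lce1 genes that came next Lce1f alone was called, within the cluster; of the Lce3 genes Lce3a, Lce3c, Lce3e and Lce3f were called and Lce3b and Lce3d, which lie among them, were not; Crct1 was called, Crnn and Flg2 were not, and Flg, Hrnr and Rptn were. Tchh, next to the far end, was the only tested member called lower.

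**Figure D2:**
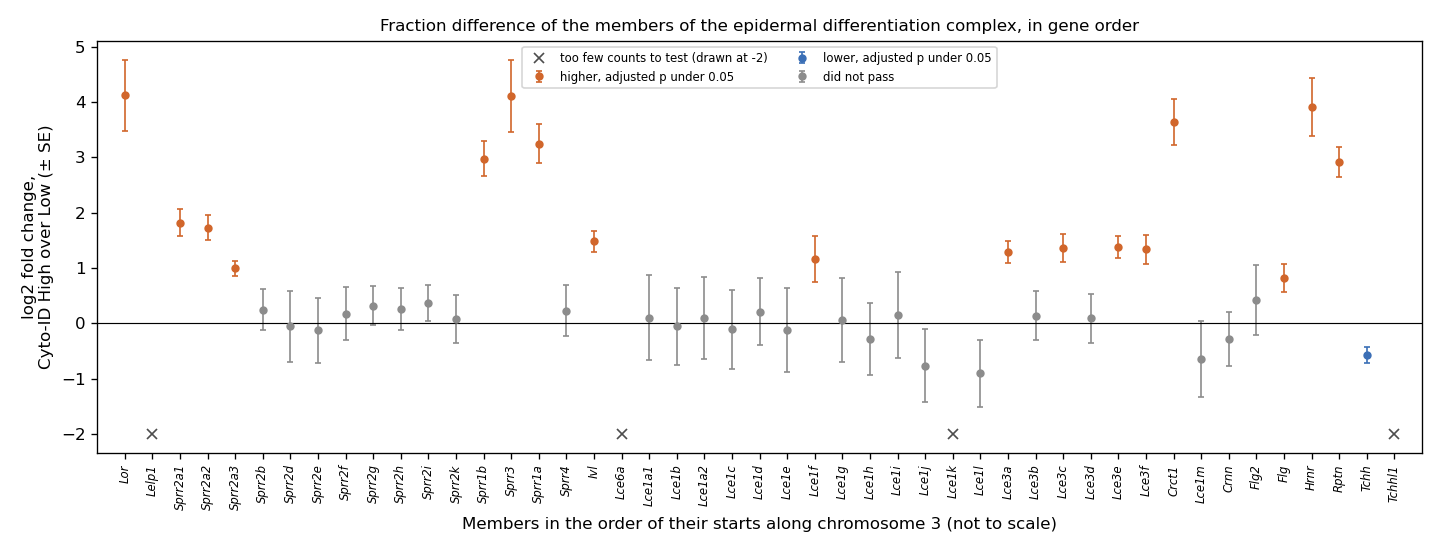
Log2 fold change of High over Low with its standard error (y axis) for the 47 members of the epidermal differentiation complex, in the order of their starts along chromosome 3 (x axis, not to scale); orange, called higher; blue, called lower; grey, did not pass; crosses, too few counts to test. Lor, Sprr3, Hrnr and Crct1 stand at 4.12, 4.11, 3.91 and 3.64, and the uncalled Sprr2 and Lce1 genes lie around 0 with wide errors.

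Promoter sequence was set beside these values. RefSeq promoter windows on GRCm38.p6 were found for 52 members, 53 windows in all since Tgm1 has a pair, and the 250 bases before each start were searched on both strands. RefSeq and GENCODE starts differ for some members. The RefSeq start lies 14 bases inside the GENCODE transcript in Sprr1a, 36 in Sprr2a1 and 85 in Sprr2b, and the Sprr2a2 window lies within its GENCODE gene. Such windows are not wholly upstream of the GENCODE start. The AP-1 motif (TGACTCA or TGAGTCA, which are reverse complements of each other) was in 13 of the 53 windows (24.5%) and in 4.46% of the 32851 windows of the whole table. The letters TATAAA were in 23 windows (43.4%), against 12.4% of the table, and the Ets-type letters NCAGGAA in 50.9%, against 25.7%. CCAAT was in 24.5% against 33.9%, and the Klf-type letters CCNCNCCC in 22.6% against 45.9%. The Grhl-type letters AACCGGTT were in 0 windows and in 0.116% of the table, and the looser AACNGGTT in 1 window (1.89%) against 1.79%; AACNGGTT includes AACCGGTT. AP-1 letters were in 6 of the 24 windows of members called higher and in 7 of the 24 of members that did not pass. The 7 were Sprr2b, Sprr2d, Sprr2e, Sprr2f, Sprr2h, Sprr2i and Sprr2k, which belong to 1 gene family and are not independent. For TATAAA the numbers were 12 of 24 and 10 of 24. A match is a description of the letters, not evidence of a bound site.

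The 200 bases before the RefSeq start are shown for 6 members that differed in their values: Lor, Sprr1a and Sprr3 with large differences, Ivl with a smaller one, Krtdap from outside the complex, and Sprr2d, which did not pass. They are 5′ to 3′ on the gene's own strand, with AP-1 and TATAAA letters in capitals. On GRCm38.p6 they are chr3:92083143-92083342 (minus strand), chr3:92485882-92486081 (minus), chr3:92458721-92458920 (minus), chr3:92573736-92573935 (minus), chr7:30787705-30787904 (plus) and chr3:92338940-92339139 (plus).
Lor: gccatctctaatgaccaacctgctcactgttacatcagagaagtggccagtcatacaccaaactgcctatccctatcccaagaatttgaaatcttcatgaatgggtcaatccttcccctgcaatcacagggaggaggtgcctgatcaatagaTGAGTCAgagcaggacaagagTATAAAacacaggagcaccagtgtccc
Sprr1a: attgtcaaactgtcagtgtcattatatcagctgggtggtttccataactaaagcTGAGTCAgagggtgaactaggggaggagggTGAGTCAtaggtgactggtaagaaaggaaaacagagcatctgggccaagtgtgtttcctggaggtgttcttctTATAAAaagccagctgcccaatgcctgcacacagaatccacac
Sprr3: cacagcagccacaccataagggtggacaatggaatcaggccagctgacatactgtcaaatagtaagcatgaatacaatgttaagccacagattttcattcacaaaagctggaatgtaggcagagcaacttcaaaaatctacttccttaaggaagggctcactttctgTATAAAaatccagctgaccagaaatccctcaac
Ivl: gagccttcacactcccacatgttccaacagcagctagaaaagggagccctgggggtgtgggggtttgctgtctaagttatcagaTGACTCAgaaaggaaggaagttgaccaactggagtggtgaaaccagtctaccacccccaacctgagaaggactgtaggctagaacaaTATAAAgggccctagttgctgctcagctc
Krtdap: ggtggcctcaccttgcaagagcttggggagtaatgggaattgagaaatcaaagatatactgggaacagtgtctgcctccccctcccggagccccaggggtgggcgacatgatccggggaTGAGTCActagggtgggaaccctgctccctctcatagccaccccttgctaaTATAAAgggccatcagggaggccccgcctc
Sprr2d: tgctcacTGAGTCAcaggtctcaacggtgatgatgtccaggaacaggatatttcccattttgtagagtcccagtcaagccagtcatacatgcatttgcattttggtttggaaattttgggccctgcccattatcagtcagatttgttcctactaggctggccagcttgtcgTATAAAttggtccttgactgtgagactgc
The TATAAA letters begin at −27 in Lor, −43 in Sprr1a, −33 in Sprr3, −29 in Ivl, −30 in Krtdap and −29 in Sprr2d, counted back from the RefSeq start, which in Sprr1a is 14 bases inside the GENCODE transcript. AP-1 letters begin at −48 in Lor, −146 and −116 in Sprr1a, −116 in Ivl, −81 in Krtdap and −193 in Sprr2d, and this window of Sprr3 has none. So Sprr3, with a log2 fold change of 4.11, lacked the letters here, and Sprr2d, at −0.05, had them.

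The transglutaminases, which make the cross-links, were called higher, 3 of 3. Their sum was 1815 ± 499 CPM in Low and 12952 ± 3286 CPM in High (SD, n = 4 each). Tgm3, a cytosolic enzyme that is activated by proteolysis, measured 981, 1530.5, 783 and 1636 CPM in Low and 8343, 11853, 8739 and 13507 CPM in High. Its lowest High value was above its highest Low value, and the difference was 8.6-fold (log2 fold change 3.10, SE 0.31, edgeR adjusted p = 3.97e-05). Tgm1, the membrane-anchored enzyme, measured 565, 321, 572 and 853 CPM in Low and 1629, 1895, 1954 and 3629.8 CPM in High. Its groups did not overlap either, with Low Female2 lowest and High Male2 far above the other High libraries, and it was 3.95-fold higher (log2 fold change 1.98, SE 0.27, edgeR adjusted p = 0.000241; 1.78 on the log2 scale without High Male2). Tgm5, an enzyme of late epidermal differentiation, was the lowest of them, at 4.33 ± 2.93 CPM in Low and 65.1 ± 14.7 CPM in High (SD, n = 4 each; log2 fold change 3.90, SE 0.53, edgeR adjusted p = 0.000224). Without Low Male2 the log2 fold change of Tgm5 was 4.57. In exons Tgm1 overlaps Gm49067 on the other strand, and whether counting used strand is not given in the sources used here. The log2 ratio of Tgm1 to Tgm3 was −1.11 ± 0.79 in Low and −2.26 ± 0.32 in High (SD, n = 4 each). The difference of −1.15 went the same way in all 4 animals but did not pass an exact two-sided permutation test (p = 0.0857, 0.114 after Benjamini-Hochberg adjustment over 4 gene pairs), where 4 against 4 allows no p below 0.0286.

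Envoplakin, periplakin and sciellin, the plaque and scaffold members, were called higher, 3 of 3, by similar amounts. Evpl, a plakin that links the envelope to desmosomes and keratin filaments, measured 390.2, 424, 257 and 494 CPM in Low and 2786, 3079, 3236 and 4149 CPM in High. Ppl, the plakin that pairs with it, measured 327, 409, 212 and 478 CPM in Low and 2643, 3592, 3046 and 4354 CPM in High. The difference was 8.42-fold for Evpl (log2 fold change 3.07, SE 0.25, edgeR adjusted p = 1.83e-05). It was 9.53-fold for Ppl (log2 fold change 3.25, SE 0.30, edgeR adjusted p = 2.64e-05). In both genes Low Male1 was the lowest library in CPM and High Male2 the highest, and the groups did not overlap. By counts High Male1 was above High Male2 for Evpl (84871 and 80653). The log2 ratio of Evpl to Ppl differed between fractions by −0.19, with the same sign in all 4 animals (exact two-sided permutation p = 0.171, and the same after adjustment); between animals the SD of that difference was 0.06. Scel, a precursor protein of the envelope with repeated sequence units, measured 43.8, 71.9, 31.2 and 82.3 CPM in Low and 461, 773, 543 and 674 CPM in High (10.7-fold; log2 fold change 3.42, SE 0.34, edgeR adjusted p = 3.95e-05). Female2 was its highest High library, and the groups were apart.

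Loricrin was several-fold higher in High, and involucrin differed by less. Lor, the glycine-rich main component of the epidermal envelope, measured 219.7, 357, 52.4 and 596 CPM in Low and 6568, 3768, 4919 and 5993 CPM in High. It was 17.4-fold higher (log2 fold change 4.12, SE 0.64, edgeR adjusted p = 0.000528), and its log2 fold change was 5.06 without Low Male2, its highest Low library. Low Male1 was lowest, at 52.4 CPM, and every High library exceeded every Low one. Crct1, a small cysteine-rich protein encoded beside the Lce genes, measured 105, 109, 35.6 and 162 CPM in Low and 1617, 1114, 1147 and 1267 CPM in High (12.5-fold; log2 fold change 3.64, SE 0.42, edgeR adjusted p = 8.58e-05). Low Male1 was again the lowest library and the groups were apart. Ivl, the glutamine-rich scaffold precursor, was low in both fractions, at 10.6 ± 3.36 CPM in Low and 29.2 ± 6.14 CPM in High (SD, n = 4 each; log2 fold change 1.48, SE 0.19, edgeR adjusted p = 0.000184). The log2 ratio of Lor to Ivl was 4.43 ± 1.31 in Low and 7.50 ± 0.32 in High (SD, n = 4 each), a difference of 3.06 with the same sign in 4 of 4 animals (exact two-sided permutation p = 0.0286, the smallest this design can give; adjusted 0.0571, which did not pass). Tested within animals, where sign flips of 4 animals allow no smaller p than 0.125, it reached that p. Lelp1, the remaining structural precursor of the set, had at most 2 counts in any library and was not tested.

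Among the small proline-rich genes, which encode bridging proteins of the envelope, the outcome followed the subfamily: Sprr1, Sprr3 and Sprr2a genes were called higher, 6 of 6, and the 8 other Sprr2 genes and Sprr4 were not. Sprr3, a member of this family known from esophagus and other internal squamous epithelia, measured 149.7, 349, 51.3 and 504 CPM in Low and 3604, 5289, 3008 and 6222 CPM in High. It was 17.2-fold higher (log2 fold change 4.11, SE 0.65, edgeR adjusted p = 0.000622), with Low Male1 lowest and High Male2 highest. Its log2 fold change was 4.97 without Low Male2 and 3.88 without High Male2. Sprr1a measured 296, 228, 126 and 318 CPM in Low and 2517, 1903, 1526 and 3222 CPM in High (9.49-fold; log2 fold change 3.25, SE 0.36, edgeR adjusted p = 6.80e-05). Sprr1b, its neighbour and close relative, measured 182, 133, 74.6 and 166 CPM in Low and 1189.8, 911, 784 and 1446 CPM in High (7.87-fold; log2 fold change 2.98, SE 0.32, edgeR adjusted p = 5.93e-05). In all 3 genes the groups were apart, and in CPM Low Male1 was the lowest library and High Male2 the highest. By counts High Male2 was not the highest: High Female1 was above it for Sprr1a (65238 and 62621) and Sprr1b (30832 and 28104), and High Female2 for Sprr3 (121485 and 120937).

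The 3 Sprr2a genes were called higher with log2 fold changes of 0.99 to 1.82, against 2.98 to 4.11 for Sprr1 and Sprr3; the difference between the subfamilies was not tested. Sprr2a1 measured 634, 545, 685 and 675 CPM in Low and 1715, 2371, 1626 and 3257 CPM in High (3.53-fold; log2 fold change 1.82, SE 0.24, edgeR adjusted p = 0.000188; 1.59 on the log2 scale without High Male2). Sprr2a2 measured 149, 119.6, 149.8 and 149 CPM in Low and 356, 533, 352 and 639 CPM in High (3.31-fold; log2 fold change 1.73, SE 0.22, edgeR adjusted p = 0.000172; 1.54 without High Male2). Unlike in most called members, the Low libraries of both genes were close together, with Female2 lowest. Sprr2a3 measured 129, 105, 105 and 96.7 CPM in Low and 215, 242, 192 and 216 CPM in High (1.99-fold; log2 fold change 0.99, SE 0.14, edgeR adjusted p = 0.000271), the smallest difference of these genes. These 3 genes are near copies: of the 50-base stretches of their transcripts, 96.3% of those of Sprr2a1, 96.5% of Sprr2a2 and 61.1% of Sprr2a3 also occur in another gene's transcripts, and the exons of Sprr2a1 and Sprr2a2 overlap. How the counting divided shared reads is not given in the sources used here, so the split between them is uncertain.

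The other Sprr2 genes had moderate counts but no call: 0 of 8 passed the edgeR test, 0 had an unadjusted p under 0.05, and DESeq2 called none of them. Sprr2d counts were 924, 797, 441 and 528 in Low and 1010, 302, 661 and 23 in High (log2 fold change −0.05, SE 0.64, adjusted p = 0.959). Sprr2e counts were 420, 339, 207 and 234 in Low and 425, 142, 270 and 12 in High (log2 fold change −0.13, SE 0.59, adjusted p = 0.887). In both, High Female1 was the highest of all 8 libraries and High Male2 the lowest by far. Sprr2f counts were 1147, 920, 531 and 611 in Low and 1432, 394, 820 and 110 in High (log2 fold change 0.17, SE 0.48, adjusted p = 0.803). Sprr2g, which GENCODE lists as a polymorphic pseudogene, had 983, 766, 543 and 517 in Low and 1196, 403, 785 and 209 in High (log2 fold change 0.32, SE 0.35, adjusted p = 0.497). Sprr2h had 1190, 985, 577 and 657 in Low and 1382, 455, 957 and 203 in High (log2 fold change 0.26, SE 0.38, adjusted p = 0.628). These 3 repeated the order, High Female1 at the top and High Male2 at the bottom. Sprr2i had 929, 754, 447 and 485 counts in Low and 1116, 407, 713 and 214 in High (log2 fold change 0.36, SE 0.32, adjusted p = 0.393). Sprr2k had 1053, 812, 517 and 546 in Low and 1077, 383, 738 and 112 in High (log2 fold change 0.08, SE 0.43, adjusted p = 0.906). Sprr2b, with the fewest counts of the subfamily, had 186, 121, 87 and 83 in Low and 209, 94, 107 and 25 in High (log2 fold change 0.25, SE 0.37, adjusted p = 0.631). Sprr4, a family member with few counts here, had 28, 27, 14 and 24 in Low and 29, 12, 32 and 6 in High (log2 fold change 0.23, SE 0.46, adjusted p = 0.73). Each of the 9 genes had its highest Low value in Female1 and its lowest High value in Male2.

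The late cornified envelope genes, which encode small proteins added late to the envelope, were low, and most of them did not pass. Of 21 genes 19 were tested: 4 of the 6 Lce3 genes and 1 of the 13 tested Lce1 genes were called higher, and 14 did not pass. Lce3c, the most counted, measured 56.7, 36.5, 25.7 and 31.5 CPM in Low and 154, 69.2, 82.1 and 76.7 CPM in High (2.58-fold; log2 fold change 1.37, SE 0.25, edgeR adjusted p = 0.00141). High Female1 stood above the other High libraries, and every High library was above every Low one. Lce3a, Lce3e and Lce3f had log2 fold changes of 1.29, 1.37 and 1.33, with means of 12.6 to 23 CPM in Low and 30.9 to 59.1 CPM in High, and none of their groups overlapped. Lce3b counts, by contrast, were 1130, 962, 543 and 638 in Low and 1254, 485, 858 and 111 in High (log2 fold change 0.14, SE 0.44, adjusted p = 0.83). Lce3d counts were 869, 758, 448 and 520 in Low and 1037, 359, 629 and 87 in High (log2 fold change 0.09, SE 0.44, adjusted p = 0.895). In these 2 genes High Male2 was the lowest library, while in the 4 called ones its CPM was above those of all Low libraries. That order depends on the TMM scaling. In counts the groups of the 4 called genes overlapped, with Low Female1 above High Male2. The counts of these 2 libraries were 527 and 412 for Lce3a, 1835 and 1490 for Lce3c, 1001 and 829 for Lce3e, and 634 and 412 for Lce3f. The Lce3 transcripts share sequence, from 12.1% of the 50-base stretches of Lce3b to 49.3% of those of Lce3d, so single values are uncertain by an unknown amount.

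Lce1 genes had at most 137 counts in any library. Most of their transcripts share sequence as well, up to 27.1% of the 50-base stretches in Lce1i and 13.8% in Lce1f. Single Lce1 values are thus also uncertain by an unknown amount. Lce1f was the one called higher, at 1.2 ± 0.48 CPM in Low and 2.64 ± 1.59 CPM in High (SD, n = 4 each; log2 fold change 1.16, SE 0.42, edgeR adjusted p = 0.0437), its groups overlapped, and the call was lost in 10 of the 16 other settings (adjusted p = 0.065 without High Male2). Its counts were 59, 43, 21 and 38 in Low and 128, 29, 58 and 42 in High. Of the 12 others, Lce1a1 had 105, 93, 52 and 65 counts in Low and 137, 34, 90 and 0 in High (log2 fold change 0.10). Lce1a2 had 54, 40, 31 and 36 in Low and 47, 24, 58 and 0 in High (log2 fold change 0.10). These were among the better counted, and both were at 0 in High Male2, where a count of 0 allows up to 3 counts or 0.154 CPM. Lce1b had 49, 45, 23 and 30 counts in Low and 55, 20, 34 and 0 in High (log2 fold change −0.06). Lce1c had 41, 34, 19 and 23 in Low and 43, 11, 28 and 0 in High (log2 fold change −0.11). Lce1d had 98, 78, 41 and 47 in Low and 130, 19, 72 and 7 in High (log2 fold change 0.21). Of these, Lce1d was the only one with counts in High Male2. Lce1e had 83, 53, 37 and 41 counts in Low and 73, 19, 56 and 0 in High (log2 fold change −0.13). Lce1g had 88, 63, 49 and 45 in Low and 99, 27, 70 and 0 in High (log2 fold change 0.06). Lce1h had 30, 19, 16 and 17 in Low and 25, 11, 16 and 0 in High (log2 fold change −0.29). High Female1 was their highest High library, and they were at 0 in High Male2. Lce1i had 35, 30, 23 and 20 counts in Low and 45, 7, 38 and 0 in High (log2 fold change 0.15). Lce1j had 27, 19, 10 and 15 in Low and 25, 6, 5 and 0 in High (log2 fold change −0.77). Lce1l had 36, 23, 15 and 15 in Low and 18, 8, 10 and 0 in High (log2 fold change −0.90). Lce1m, set apart from the cluster beside Crct1, had 32, 14, 13 and 11 in Low and 19, 5, 10 and 0 in High (log2 fold change −0.64). In Lce1j, Lce1l and Lce1m, Low Female1 had the highest count of all 8 libraries. In High Male2, 11 of the 13 tested Lce1 genes were at 0, and Lce1f made up 42 of the 49 Lce1 counts. Among these 12 the standard errors of the log2 fold changes were 0.61 to 0.78 and the adjusted p-values 0.256 to 0.963. Lce1k and Lce6a had 0 to 19 counts in each library and were not tested.

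The members that did not pass were set beside the endothelial markers library by library; they were grouped by their call, to which the low counts in High Male2 contribute. The 25 uncalled members summed to 9642, 7831, 4748 and 5271 counts in Low and to 11001, 3664, 7142 and 1126 in High. The 5 endothelial markers (Pecam1, Cdh5, Kdr, Emcn and Vwf), of which 0 passed the edgeR test and 0 had an unadjusted p under 0.05, summed to 666, 524, 332 and 546 counts in Low and to 624, 188, 390 and 41 in High. High Male2 was lowest and Female1 the highest of its fraction in both sums. The marker sums were 10.3 to 20.6 CPM in Low and 2.11 to 24.1 CPM in High, and Kdr was at 0 in High Male2. Leukocyte, fibroblast and muscle marker sums were also lowest in High Male2, at 5.45, 36.6 and 4.58 CPM, against 23.8, 147 and 16.9 CPM or more in the other libraries, but within Low neither these lists nor the endothelial one kept the full order of the uncalled members, and Male2, not Female1, had the highest fibroblast sum. Per endothelial marker count, the 25 members had 14.5, 14.9, 14.3 and 9.65 counts in Low and 17.6, 19.5, 18.3 and 27.5 in High. For the 14 Lce1 genes this ratio was 1.14, 1.08, 1.07 and 0.749 in Low and 1.38, 1.18, 1.41 and 1.20 in High. The 14 include the called Lce1f, which made up 42 of the 49 Lce1 counts of High Male2. The ratio of that library therefore does not describe the uncalled Lce1 genes. For the 4 called Lce3 genes it was 6.0, 6.46, 5.77 and 4.57 in Low and 14.9, 21.7, 12.9 and 76.7 in High. The 25 uncalled members and the 4 called Lce3 genes were grouped by call, which fixes part of the difference between their ratios. As a description over the 8 libraries, within each of which all counts share 1 depth, Pearson's r between log2 counts and log2 endothelial counts was 0.98 for Lce1, 0.96 for the 8 other Sprr2 genes, 0.97 for Lce3b with Lce3d, 0.24 for the 4 called Lce3 genes and −0.48 for all members. High Male2, with 41 endothelial counts, enters all of these r values, and they are not given without it. The part of these cells, or of whatever else differs in High Male2, in the values of the uncalled genes was not tested. Without High Male2 0 of the 25 were called by edgeR, the lowest adjusted p being 0.141, and their log2 fold changes then ran from −0.56 (Lce1l) to 0.79 (Flg2).

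**Figure D3:**
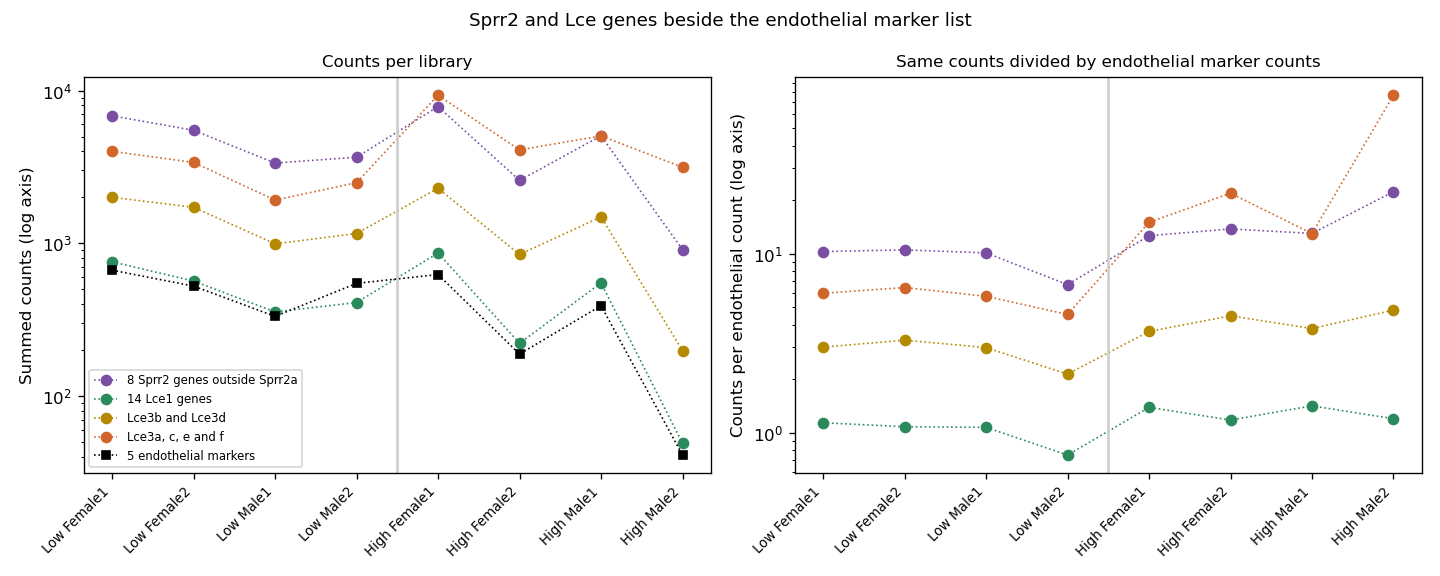
Left, summed counts (log axis) of 4 gene groups and of the 5 endothelial markers in each library; right, the gene counts divided by the endothelial counts (log axis). On the left the Lce1 line, which includes the called Lce1f, goes from 756 counts beside 666 markers in Low Female1 to 49 beside 41 in High Male2. Of those 49 counts, 42 were of Lce1f. On the right the ratio of the 4 called Lce3 genes is 76.7 in High Male2. The Lce1 ratio, with Lce1f included, lies between 0.749 and 1.41 in all libraries.

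The S100-fused type members, long repeat proteins with a calcium-binding start, differed in direction and size. Hrnr, hornerin, measured 11.3, 25, 3.67 and 22.3 CPM in Low and 275, 197, 269 and 183 CPM in High (15-fold; log2 fold change 3.91, SE 0.52, edgeR adjusted p = 0.000203). Rptn, repetin, measured 88.6, 105, 37.6 and 94.5 CPM in Low and 734, 635, 513 and 553 CPM in High (7.55-fold; log2 fold change 2.92, SE 0.27, edgeR adjusted p = 3.01e-05). Low Male1 was the lowest library in both, and the groups were apart. Flg, filaggrin, whose units bundle keratin filaments, was called at a smaller size, with 10.1 ± 3.14 CPM in Low and 17.4 ± 6 CPM in High (SD, n = 4 each; log2 fold change 0.82, SE 0.26, edgeR adjusted p = 0.0231). Its groups overlapped, and the call was lost when scaling by total counts and when any 1 of 5 libraries was left out. The log2 ratio of Flg to Lor was −4.50 ± 1.33 in Low and −8.29 ± 0.61 in High (SD, n = 4 each), lower in High in 4 of 4 animals by −3.78 (exact two-sided permutation p = 0.0286, the smallest this design can give; adjusted 0.0571, which did not pass). Within animals it reached 0.125, the smallest p of an exact sign-flip test. Tchh, trichohyalin of the hair root sheath and tongue papillae, went the other way, with 11.6, 12.7, 11.2 and 9.66 CPM in Low and 7.6, 8.1, 6.83 and 7.92 CPM in High. All High libraries were below all Low ones (1.48-fold lower; log2 fold change −0.57, SE 0.14, edgeR adjusted p = 0.00906), and it was lower in each of the 16 other settings. Crnn, cornulin, a squamous marker in human esophagus, had 60, 44, 39 and 35 counts in Low and 58, 18, 32 and 5 in High (log2 fold change −0.28, SE 0.49, adjusted p = 0.68). Flg2 had 45, 35, 25 and 28 counts in Low and 60, 19, 53 and 2 in High (log2 fold change 0.42, SE 0.63, adjusted p = 0.628). Both had their lowest count in High Male2, as the uncalled Sprr2 genes did. Tchhl1 had 0 to 8 counts a library and was not tested.

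The secreted and late-differentiation members were called higher, 4 of 4, with a median log2 fold change of 3.40. Krtdap, a secreted protein of suprabasal keratinocytes, measured 519, 529, 266 and 616 CPM in Low and 4376, 4474, 4192 and 4883 CPM in High (9.32-fold; log2 fold change 3.22, SE 0.27, edgeR adjusted p = 2.04e-05). The High libraries lay close together, and Low Male1 was lowest. Sbsn, suprabasin, measured 216, 293, 121 and 412 CPM in Low and 2648, 3233, 2671 and 3896 CPM in High (11.9-fold; log2 fold change 3.58, SE 0.37, edgeR adjusted p = 5.02e-05). Cnfn, cornifelin, a small envelope component, measured 180.2, 232, 69.9 and 389 CPM in Low and 2775, 2594, 2332 and 5101 CPM in High (14.5-fold; log2 fold change 3.86, SE 0.51, edgeR adjusted p = 0.000189), and was 3.56 on the log2 scale without High Male2, the highest library. Male1 was lowest in Low for both, and the groups were apart. Ecm1, a secreted matrix protein that lies on chromosome 3 outside the complex, measured 89.5, 58.4, 64.3 and 75.6 CPM in Low and 197, 160.0, 149 and 159 CPM in High (2.31-fold; log2 fold change 1.21, SE 0.17, edgeR adjusted p = 0.000294). It differed from the others of this class in size and in its lowest Low library, which was Female2. Exons of Sbsn overlap Tmem147os, and those of Ecm1 and Rptn overlap Mir7014 and Gm37857.

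Levels can be set against each other per kilobase of exon. In High, Krtdap was highest at 6600.3 ± 430.5 CPM per kb (SD, n = 4), followed by Cnfn at 4451 ± 1780.3, Sprr3 at 3708 ± 1215, Lor at 2986 ± 694, Sprr1a at 2844 ± 921 and Tgm3 at 2566 ± 602 CPM per kb. The steps between Cnfn, Sprr3, Lor, Sprr1a and Tgm3 were each smaller than the larger of the 2 SDs. In Low, Krtdap was again highest, at 711 ± 222 CPM per kb, and Cnfn, Sprr1a, Tgm3, Sprr3 and Sprr2a1 followed at 303 ± 185, 300.5 ± 108, 298 ± 100.4, 216 ± 166 and 211 ± 21.3 CPM per kb, again within their SDs of each other. Lor stood at 172 ± 129 CPM per kb in Low. Ivl reached only 15.2 ± 3.19 and Flg 0.925 ± 0.319 CPM per kb in High. Flg encodes a repeat protein, and how reads that match several places were counted is not given, so its level per kb is uncertain. As shares of all member counts, the other structural precursors, mostly Lor, went from 6.35 ± 3.00% in Low to 13.5 ± 3.6% in High, the secreted class from 16.7 ± 2.3% to 21.9 ± 0.4%, and the plaque and scaffold genes from 13.3 ± 0.7% to 14.7 ± 1.4%. The cross-linking enzymes went from 30.5 ± 3.1% to 25.7 ± 2.7%, the small proline-rich genes from 28.6 ± 3.8% to 21.7 ± 2.4%, the late cornified envelope genes from 2.55 ± 0.87% to 0.609 ± 0.336%, and the S100-fused type from 2.00 ± 0.44% to 1.79 ± 0.46%. These shares were not tested.

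Animals differed in a regular way. Low Male1 was the lowest Low library in 22 of the 27 members called higher, and Low Male2 the highest in 13. In the 25 uncalled members Low Female1 was the highest Low library in 25, High Female1 the highest High library in 23 and High Male2 the lowest in 25. A dependence of the fraction difference on sex, tested as an interaction with 2 animals of each sex, passed the edgeR threshold in 0 of 53 members, and 0 had an unadjusted p under 0.05. Over all genes tested it passed in 0%, and 19 of 17344 genes had an unadjusted p under 0.05, which is below that threshold's own share of 5%. This test therefore says nothing on whether the differences depend on sex. A fit that used the animal as a block called 0 genes, and 38 had such an unadjusted p.

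Genes that act on the envelope or lie beside its genes were tested in the same fit, in which 48.7% of all genes were called, 23.4% higher and 25.3% lower. Enzymes that attach and make the envelope's lipids were higher in 12 of 13, with a median log2 fold change of 3.35. Alox12b, the lipoxygenase that oxidises the linoleate of envelope ceramides, had 70.8 ± 48.1 CPM in Low and 1276 ± 304 CPM in High (log2 fold change 4.17, edgeR adjusted p = 0.000232). Abca12, the lamellar granule lipid transporter, had 62.3 ± 24.8 CPM in Low and 763 ± 70.7 CPM in High (log2 fold change 3.63, edgeR adjusted p = 2.16e-05). Ephx3, an epoxide hydrolase, had a log2 fold change of 3.77, and Lipn, the one that did not pass, had 0.68. Other substrates of the envelope were higher in 10 of 13, with a median of 1.74: the desmosomal linker Dsp had 2742 ± 412 CPM in Low and 11323 ± 1578 CPM in High (log2 fold change 2.04, edgeR adjusted p = 3.62e-05). Krt1 and Krt10, which are also in the list of skin markers, had 2.53 and 2.43 on the log2 scale, and Cstb, Serpinb2 and Anxa1 did not pass (Anxa1 0.61, edgeR adjusted p = 0.0761, and 0.0323 with the animal as a block, which calls it higher). Krt1, Krt10 and Krt2 of the 4 skin markers were called higher, and the list summed to 49.7 to 102 CPM in Low and 253 to 607 CPM in High; its part in the result was not tested.

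Of 12 genes of filaggrin-type processing, 8 were higher and 2 lower, with a median of 1.76. Asprv1, a protease that cleaves profilaggrin, had 185 ± 85.4 CPM in Low and 2093 ± 264 CPM in High (log2 fold change 3.50, edgeR adjusted p = 6.46e-05). Casp14, the caspase of cornifying cells, had 3.38 on the log2 scale, and Padi1, a deiminase, 4.11. Padi4 and Furin were lower, at −3.22 and −0.65. The other transglutaminases, 4 tested of 5, gave 0 higher and 1 lower: Tgm2, the tissue type, had 33.1 ± 17.8 CPM in Low and 2.47 ± 0.782 CPM in High (log2 fold change −3.74, edgeR adjusted p = 0.000135). So the 3 transglutaminases of the set and Tgm2 were called in opposite directions. Of 17 tested genes of the same locus that are not members, 6 were higher, 3 lower and 8 did not pass, with a median of 0.11. This share of called genes is near that over all genes tested, and with the animal as a block the call of Prr9 was lost (edgeR adjusted p = 0.0339, and 0.0523 with the block). Pglyrp3, a peptidoglycan recognition protein, had 3.23 ± 2.54 CPM in Low and 60.1 ± 9.46 CPM in High (log2 fold change 4.22, edgeR adjusted p = 0.000152). S100a7a and Pglyrp4 were also higher, at 2.75 and 3.14, and S100a6, S100a13 and S100a10 lower, at −1.71, −1.24 and −0.86.

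Among 28 transcription factors and other regulators named for envelope genes, 15 were higher, 4 lower and 9 did not pass, with a median of 0.62. Nfe2l2, one of the 9, passed with the animal as a block (edgeR adjusted p = 0.125, and 0.044 with the block). Hopx, a homeodomain protein without DNA binding, had 48 ± 22.1 CPM in Low and 576 ± 54 CPM in High (log2 fold change 3.58, edgeR adjusted p = 3.96e-05). Grhl1 and Grhl3, of the grainyhead family, had 2.98 and 2.44 on the log2 scale, Prdm1 2.49, Ovol1 2.16 and Zfp750 1.83. Klf4, which is also in the suprabasal marker list, had 1.62. Trp63, the regulator of the basal state, had 504 ± 108 CPM in Low and 121 ± 12.8 CPM in High (log2 fold change −2.06, edgeR adjusted p = 3.18e-05). Jun was lower as well, at −0.84, whereas Fos, Fosl1 and Junb, further subunits of AP-1, did not pass at 0.37, 0.39 and 0.10. The plot of these lists beside the members shows the spread of each.

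**Figure D4:**
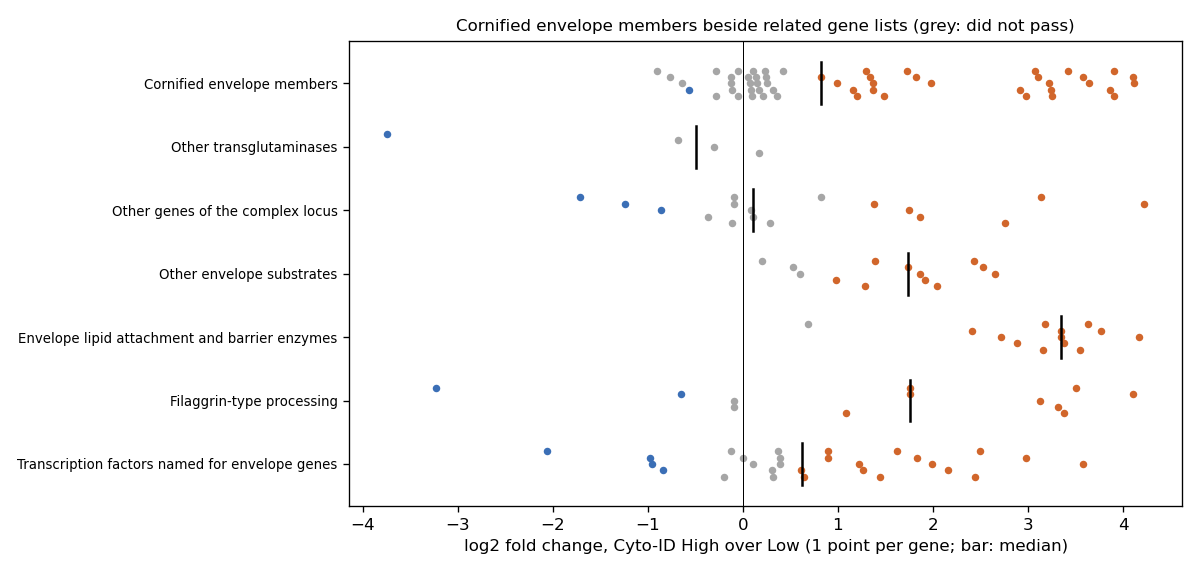
Log2 fold change of High over Low (x axis) for each tested gene of the cornified envelope set and of 6 related lists, 1 point per gene; orange, called higher; blue, called lower; grey, did not pass; vertical bar, median. The barrier lipid enzymes have the highest median, 3.35, and the members spread from −0.90 to 4.12 with 0.82 as their median.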

How the data were processed

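RNA of sorted esophageal epithelial cells was sequenced in bulk, and the authors deposited 1 table of counts per gene symbol for 8 libraries; the values are whole numbers and the library totals differ, as in raw counts. STAR 2.7.3, DESeq2 and the build GRCm38 are named, per the submitters' processing notes; the counting tool, its annotation, use of strand and treatment of shared reads are not given in the sources used here. Depth was 26285150 to 29301054 counts a library, and no interval is given since spread is shown between animals.

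Libraries were grouped by the label of the Cyto-ID fraction. High was tested against Low in R 4.3.3 with edgeR 4.0.16 (filterByExpr, TMM, glmQLFit, glmQLFTest, sex as covariate, two-sided, Benjamini-Hochberg threshold 0.05) over all genes, and the fit was tested on simulated counts. Standard errors were derived from the F statistic. Ratios of 4 gene pairs used log2 CPM with a prior count of 2 and an exact permutation test. The animals' names pair the libraries; the correlation of deviations between the libraries of an animal was 0.43, 0.32, −0.02 and 0.28. Per-library values are given for members with a mean of at least 50 CPM, for every tested member with a negative fold change and for every tested member that did not pass. The rest are given by range, by mean and SD or by single values, and Lce1f also by its counts. Members and lists were chosen with earlier results of these data known. Alternatives were RLE factors, total counts, no filter, at least 10 counts in every library, DESeq2 1.42.0, limma-voom (limma 3.58.1), no covariate, the animal as a block, and leaving out each library. Gene positions and exon lengths come from GENCODE M21 and promoter windows from RefSeq.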

Additional observations from a re-analysis of the deposited data

Results flagged for a closer look

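Among 116 groups of 4 libraries examined, 6 held a library whose gap to its neighbour took most of the group's range, 0.838 to 0.971 of it. By chance about 1 in 20 would. The check covered 46 members, not all of them. Lce3e was not flagged, though High Female1 had 94.3 CPM, against at most 50.4 CPM in the other High libraries. Low Female2 was low for Sprr2a2 at 119.6 CPM, against 148.9 CPM or more in the other Low libraries. Low Female1 was high for Lce1h at 0.927 CPM and for Lce1m at 0.988 CPM. High Female1 was high for Lce3c at 154 CPM. High Male2 was high for Cnfn at 5101 CPM and for Tgm1 at 3630 CPM, both well above the other High libraries.

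Sprr2j-ps, a pseudogene row left out of the set by its name, was higher in High: it had 6.63 ± 1.54 CPM in Low and 27.6 ± 5.4 CPM in High (SD, n = 4 each), a difference of 2.07 on the log2 scale (SE 0.21, adjusted p = 4.94e-05 by edgeR's quasi-likelihood test). Its counts were 271, 249, 149 and 221 in Low and 739, 555, 600 and 678 in High. Its neighbours Sprr2i and Sprr2k did not pass, at 0.36 and 0.08. High Male2, the library in which the uncalled Sprr2 genes had their lowest counts, was not low for it.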

How the results depend on the processing

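Of the 27 members called higher, 25 were called in every one of the 16 alternatives, as was the lower call of Tchh; the exceptions were Lce1f, lost in 10, and Flg, lost in 6. The count of members higher was 25 to 27 throughout, and the replicate block of animals gave 27 higher and 1 lower, changing no member's call. Scaling by total counts moved the median of all genes by −0.55 and the share of calls that were higher from 48% to 20.5%.

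The median log2 fold change of the members was 0.31 under total counts, 0.32 with no filter, 1.43 with at least 10 counts in every library, which left 38 members, and 0.30 to 0.90 when 1 library was left out, the lowest without High Male1. Under total counts the log2 ratio of summed levels was 2.47 for all members, 2.24 for cross-linking enzymes, 2.12 for small proline-rich, 0.46 for late cornified envelope, 2.82 for secreted and 2.60 for plaque genes. Leaving out 1 library gave 2.90 to 3.23 for all members, 2.67 to 3.03 for the cross-linking enzymes, 2.53 to 2.85 for the small proline-rich, 0.60 to 1.18 for the late cornified envelope, 3.65 to 4.45 for the other structural precursors, 3.02 to 3.34 for the plaque, 3.19 to 3.64 for the secreted and 2.62 to 2.99 for the S100-fused type genes. None of the 4 gene pairs passed after adjustment, nor in an exact sign-flip permutation test over animals (p = 0.125, the smallest it allows). Leaving out 1 library gave 2.56 to 3.56 for the log2 ratio Lor to Ivl, −4.31 to −3.27 for the log2 ratio Flg to Lor, and −1.53 to −0.93 for the log2 ratio Tgm1 to Tgm3. Without Low Female2 each of these 3 passed (exact permutation, adjusted p = 0.0381), at 3.26, −3.93 and −1.53. With all libraries Lor to Ivl and Flg to Lor already had the smallest permutation p possible, 0.0286, which became 0.0571 after adjustment. Passing thus depends on how many of the 4 pairs reach such a p, and no conclusion is drawn from it.

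Only uncalled members changed sign, and the cause was not tested. With DESeq2 this was Sprr2d (0.020), and with RLE factors Sprr2d (0.028) and Lce1b (0.020). With limma-voom these were Sprr2f (−0.12), Sprr2k (−0.15), Lce1a1 (−0.58), Lce1a2 (−0.53), Lce1d (−0.24), Lce1g (−0.58), Lce1i (−0.70), Lce3b (−0.11) and Lce3d (−0.15). With the replicate block they were Sprr2f (−0.11), Sprr2k (−0.15), Lce1a1 (−0.36), Lce1a2 (−0.26), Lce1d (−0.21), Lce1g (−0.38), Lce1i (−0.36), Lce3b (−0.10) and Lce3d (−0.14). Under total counts they were Sprr2b (−0.25), Sprr2f (−0.29), Sprr2g (−0.17), Sprr2h (−0.22), Sprr2i (−0.13), Sprr2k (−0.39), Sprr4 (−0.27), Lce1a1 (−0.34), Lce1a2 (−0.37), Lce1d (−0.25), Lce1g (−0.40), Lce1i (−0.30), Lce3b (−0.33), Lce3d (−0.38) and Flg2 (−0.038). When 1 library was left out the ranges were −0.059 to 0.51 for Sprr2b, −0.97 to 0.34 for Sprr2d, −0.91 to 0.26 for Sprr2e, −0.39 to 0.49 for Sprr2f, −0.023 to 0.54 for Sprr2g, −0.19 to 0.50 for Sprr2h, −0.47 to 0.37 for Sprr2k and −0.26 to 0.47 for Sprr4. They were −0.82 to 0.51 for Lce1a1, −0.77 to 0.34 for Lce1b, −0.91 to 0.49 for Lce1a2, −0.85 to 0.27 for Lce1c, −0.43 to 0.55 for Lce1d, −1.06 to 0.26 for Lce1e, −0.84 to 0.46 for Lce1g, −0.80 to 0.11 for Lce1h and −0.76 to 0.53 for Lce1i. They were −0.45 to 0.46 for Lce3b, −0.44 to 0.41 for Lce3d, −0.72 to 0.035 for Crnn and −0.38 to 0.79 for Flg2. Counts of the related gene lists stayed within 1.5 times of those given, and the replicate block changed 3 calls in them, gaining Anxa1 and Nfe2l2 and losing Prr9. With both strands replaced by the gene's own strand, windows with a match fell from 13 to 8 for CCAAT, from 12 to 5 for CCNCNCCC and from 27 to 17 for NCAGGAA; as shares these were 15.1%, 9.43% and 32.1% of member windows against 19.1%, 27% and 14.4% of the whole table. For TATAAA the shares were 39.6% and 7.59%.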
